A study of Homo sapiens with 12 samples.

Results

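The genes described here are 10 receptors and surface or lysosomal proteins of macrophages: CD14, CD163, CD36, FOLR2, SIGLEC1, CD52, MSR1, MRC1, CD68 and VSIR. They were found by symbol in the first column of the 2 deposited tables of read counts. All 10 had a row among the 27825 rows with a gene symbol in the first table, and 8 of them were among the 904 genes of the second, where MSR1 and MRC1 were not listed. They were selected on the results of both comparisons, the antagonist and the agonist fold changes and the counts in the IgG libraries, so their levels, fold changes and calls below are a description of these libraries and support nothing by themselves.

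RNA was sequenced from U937, a human pro-monocytic leukaemia line, which limits it as a model of macrophages to a single leukaemia line in culture. Per the labels, the cells of all 12 libraries had a pretreatment with interferon gamma at 50 ng/mL before 72 hours with an antibody. The labels write 5 mg/mL for the LILRB3 antibodies, and the concentration of IgG is not given in the sources used here. The 3 antagonist libraries (an antibody that blocks LILRB3, an inhibitory receptor of myeloid cells) and the 3 IgG libraries that belong to them form set 1. The 3 agonist libraries (an antibody that activates LILRB3) and their own 3 IgG libraries form set 2. No label says that libraries of a group came from separate cultures, so the spread between them may be technical.

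Macrophages take up modified lipoproteins, haemoglobin, dying cells and microbes through scavenger receptors, a functional class whose members differ in structure. As monocytes mature into macrophages, many of these receptors become more abundant, and several serve as markers of resident or anti-inflammatory macrophages. CD14 presents bacterial lipopolysaccharide to TLR4, CD163 takes up haemoglobin bound to haptoglobin, CD36 takes up oxidised lipoproteins and long-chain fatty acids, and MSR1 and MRC1 bind modified lipoproteins and mannose-rich glycans. FOLR2 binds folate, SIGLEC1 (sialoadhesin, CD169) binds sialic acid on other cells and is induced by interferons, CD68 lies mainly in the lysosomal membrane, CD52 is a small glycoprotein held by a GPI anchor, and VSIR (VISTA) is an inhibitory immune checkpoint protein.

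In set 1, total counts of genes were between 17035334 and 17771980 in antagonist libraries and between 17142362 and 18820312 in IgG libraries. In set 2, the listed genes summed to between 3135972 and 3522203 counts in agonist libraries and between 2764479 and 3321678 in IgG libraries, and these sums are not library depths. The listed fold changes nearest zero were -0.25 and 0.12 on the log2 scale, while in set 1 a share of 23.1% of tested genes had a log2 fold change below 0.1 in size. The second table was therefore taken to hold genes picked from a longer one, and the zero point of agonist fold changes is uncertain. Genes that interferon gamma is known to induce were nearly missing from set 1, against what its labels lead one to look for: CXCL10 had 1 count over the 3 antagonist libraries and 0 over the 3 IgG libraries, and HLA-DRA had 1 count over the antagonist libraries and 2 over the IgG libraries. In set 2, CXCL10 had between 449 and 543 counts in agonist libraries and between 620 and 789 in IgG libraries. All 22 markers of monocytes and of this line passed the filter on low counts in set 1, with a summed level of 7908 to 8350 CPM (counts scaled to the library total) in antagonist libraries and 8045 to 9216 CPM in IgG libraries. Markers of other cell types at 0 in all 6 libraries of set 1 included CD3G, CD8B and KLRD1 of 16 for T and NK cells, MS4A1, BLK and TNFRSF17 of 10 for B cells, HBB, PF4 and PPBP of 11 for red cells and megakaryocytes, EPCAM and LUM of 11 for epithelium and fibroblasts, and LAMP3 of 11 for dendritic cells. Some other markers of these lists had a few counts, in part mainly in antagonist library 3. In antagonist libraries, CD3E had 0, 0 and 5 counts, COL3A1 0, 0 and 8 and CCR7 1, 3 and 11. In IgG libraries, CD3E and COL3A1 had 0 counts and CCR7 had 0, 2 and 0. CD8A went the other way, with 0, 0 and 6 counts in IgG libraries and 1, 0 and 0 in antagonist libraries. The source of these counts was not tested. LILRB3 had 5, 2 and 3 counts in antagonist libraries, against 2, 1 and 2 in IgG libraries, and was not listed in set 2. IgG library 1 of set 1 and agonist library 1 stood apart from the other libraries of their groups, with a chi-square per degree of freedom of 11.0 to 19.9 for the IgG library, against 4.54 between the other pair of its group, and of 25.1 to 26.7 for the agonist library, against 3.75 between the other pair of its group. In set 1, 15 mitochondrially encoded genes held 3.51 to 3.85% of counts in antagonist libraries, against 4.49 to 4.75% in their IgG libraries. In set 2, 7 such genes were listed, all of them called lower. They held 2.38 to 2.63% of listed counts in agonist libraries, against 3.28 to 3.39% in their IgG libraries. The shares of the sets cover different genes, and those of set 2 were selected, so they are not like measures.

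Upstream sequences are shown for CD52, which had the largest agonist fold change of the 8 listed members, for CD163, which ranked 4, and for VSIR, which had the smallest. They come from the RefSeq promoter table of GRCh38.p14, which held CD14, CD163, CD36, CD52, CD68 and VSIR of the 10 genes; FOLR2, SIGLEC1, MSR1 and MRC1 are named only. The stretches are chr12:7503894-7504027 on the minus strand for CD163, chr1:26317708-26317956 on the plus strand for CD52 and chr10:71773521-71773770 on the minus strand for VSIR, each read 5′ to 3′ towards the gene and cut off where the exons of the gene begin in GENCODE. Capitals mark matches, on either strand, to the 4 motifs searched: GAGGAA, the core bound by the myeloid factor PU.1 and other ETS proteins, TTGCNNAA for C/EBP proteins, TTCNNNGAA for STAT proteins and GGGCGG, the GC box.
CD163: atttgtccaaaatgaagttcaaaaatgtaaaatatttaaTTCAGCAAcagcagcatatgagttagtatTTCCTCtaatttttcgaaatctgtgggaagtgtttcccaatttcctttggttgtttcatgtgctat
CD52: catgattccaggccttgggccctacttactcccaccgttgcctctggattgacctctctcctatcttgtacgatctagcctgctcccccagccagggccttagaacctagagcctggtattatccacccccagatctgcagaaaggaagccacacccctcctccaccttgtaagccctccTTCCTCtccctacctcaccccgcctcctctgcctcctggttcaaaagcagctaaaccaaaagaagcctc
VSIR: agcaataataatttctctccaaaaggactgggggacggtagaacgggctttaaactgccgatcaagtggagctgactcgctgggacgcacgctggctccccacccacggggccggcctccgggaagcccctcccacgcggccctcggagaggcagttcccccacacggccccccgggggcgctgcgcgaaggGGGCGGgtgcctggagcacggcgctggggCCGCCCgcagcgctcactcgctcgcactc
CD163 held a C/EBP match at -211 and a PU.1 core at -182, both on the opposite strand. Positions are counted from the RefSeq start of the table, which for CD163, CD14, CD36, CD52 and CD68 lies inside the GENCODE gene spans given below, so that the CD163 and CD52 stretches end before that start. CD52 held a PU.1 core on the opposite strand at -70. VSIR held GC boxes at -58 and -29 and no match to the other motifs. In windows of 250 bases before the RefSeq start that are not printed here, and which for CD14 wholly and for CD68 partly lie inside the GENCODE span, CD14 held a PU.1 core at -96 and a STAT match at -123, and CD68 held a PU.1 core at -48 and a C/EBP match at -13. Of 6 such windows for CD36, all of them inside its GENCODE span, 3 held a PU.1 core, 1 held a STAT match and 2 held no match. Over all 35116 windows of that length in the table, 23.6% held GAGGAA, 9.05% TTGCNNAA, 6.57% TTCNNNGAA and 42.6% GGGCGG on either strand. A match describes letters and is not shown to be a site.

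With the agonist, every listed receptor was higher than with IgG. All 8 passed an adjusted p of 0.05 (edgeR quasi-likelihood test with Benjamini-Hochberg adjustment over the table), where 99.9% of the 904 listed genes were called, 55.6% higher and 44.2% lower. In all 8, the 3 agonist libraries lay above the 3 IgG libraries; groups did not overlap for 97.6% of listed genes, 53.4% higher and 44.1% lower. Since almost the whole table is called and the comparison also chose the members, the counts say nothing about the members. Fold changes ran from 3.63-fold for CD52 to 1.24-fold for VSIR, whereas the median listed gene had a log2 fold change of 0.19 and 5% of listed genes were above 0.84. With the antagonist, only SIGLEC1 of the 4 members with enough counts to test was called higher and none was called lower, where 36.1% of the 13778 tested genes were called, 15.6% higher and 20.5% lower. The other 6 members had 22 counts or fewer over any group of set 1. In these bulk libraries, fewer cells that express a gene and less RNA per cell cannot be told apart.

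**Figure D1:**
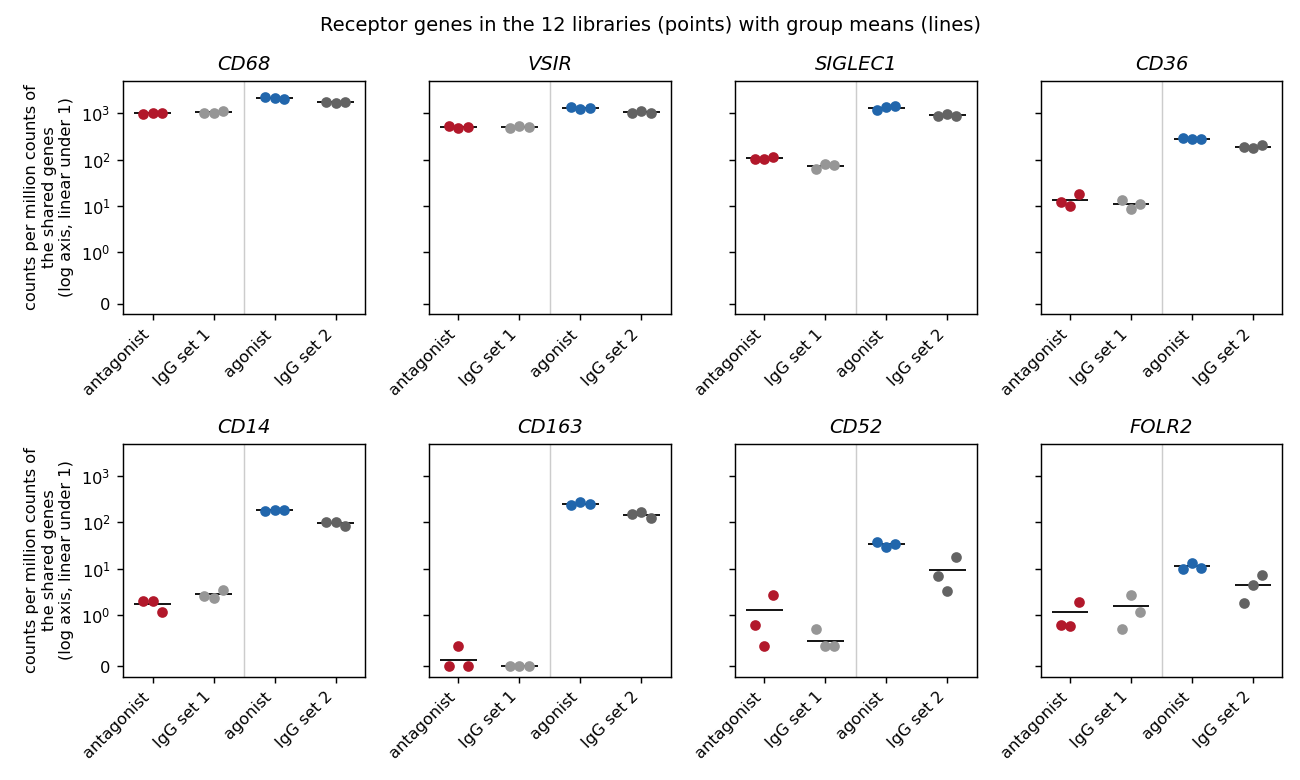
Levels of 8 receptor genes in CPM of the 902 genes that both tables hold, in each of the 12 libraries (points; log axis, linear under 1) with group means (lines). The agonist libraries lie above their IgG libraries in all 8 genes, and the values of CD14, CD163, CD52 and FOLR2 in set 1 rest on between 0 and 9 counts a library.

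CD14 (chromosome 5, 140631728 to 140633701, GRCh38, minus strand) is the co-receptor through which TLR4 senses lipopolysaccharide. In set 2, it had 630, 588 and 610 counts in agonist libraries, against 344, 285 and 263 in IgG libraries. The agonist group was tight and far above the IgG group, at 183 ± 3 CPM of listed genes with the agonist and 96.2 ± 11.7 with IgG (SD, n = 3 each, here and below), a log2 fold change of 0.93 ± 0.11 (SE) and a rank of 39 among the 904 fold changes. In set 1, the same gene had only 5, 5 and 3 counts in antagonist libraries, against 7, 6 and 9 in IgG libraries. The ratio of summed counts per total, antagonist over IgG, was 0.601 with an exact 95% counting interval of 0.278 to 1.25, so that no difference was detectable at these counts. Intervals of this kind cover counting error only.

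CD163, the haemoglobin scavenger (chromosome 12, 7470813 to 7503893, minus strand), was counted almost entirely in set 2. Agonist libraries held 831, 875 and 834 counts, against 502, 467 and 387 in IgG libraries. Scaled, the level was 255 ± 19 CPM of listed genes with the agonist and 147 ± 23 with IgG, with a log2 fold change of 0.80 ± 0.11. In set 1, CD163 had 0, 1 and 0 counts in antagonist libraries and 0 in each IgG library. A count of 0 over the 3 IgG libraries allows a level of up to 0.0563 CPM. Its neighbour CD163L1, a related scavenger receptor whose exons overlap 38 bases of CD163, was counted in set 1 at 452 reads over the antagonist libraries and 628 over the IgG libraries.

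CD36, the fatty acid and oxidised lipoprotein receptor (chromosome 7, 80369575 to 80679277, plus strand), had 1025, 856 and 930 counts in agonist libraries, against 615, 487 and 650 in IgG libraries. The groups were separate, at 282 ± 16 CPM of listed genes with the agonist and 188 ± 15 with IgG, a log2 fold change of 0.58 ± 0.09. In set 1 it had 31, 25 and 46 counts in antagonist libraries, against 37, 22 and 28 in IgG libraries. These groups overlapped, at 1.89 ± 0.59 CPM with the antagonist and 1.67 ± 0.34 CPM with IgG, and the log2 fold change of 0.18 ± 0.28 did not pass the test. Antagonist library 3 decided its direction, since without that library the log2 fold change was -0.092. The macrophage scavenger receptor MSR1 (chromosome 8, 16107878 to 16567490, minus strand) had 0 counts in antagonist libraries and 1 count over the IgG libraries of set 1. The mannose receptor MRC1 (chromosome 10, 17809344 to 17911170, plus strand) had 0 counts in all 6 libraries of set 1, which allows a level of up to 0.0573 CPM in the antagonist group and 0.0563 CPM in the IgG group.

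SIGLEC1 (chromosome 20, 3686970 to 3707128, minus strand) was the one member called higher with both antibodies. Antagonist libraries held 252, 266 and 295 counts, against 178, 203 and 191 in their IgG libraries. The antagonist group lay above the IgG group, at 15.1 ± 1.0 CPM against 11.1 ± 1.3 CPM with IgG, a log2 fold change of 0.45 ± 0.11 that lay between the 75th percentile of all tested genes (0.24) and the 95th (0.63). That call ended without antagonist library 3, at 0.39 ± 0.13, and after trends on transcript length and GC content were removed, at 0.16 ± 0.10. Agonist libraries held 4209, 4299 and 4796 counts, against 2937, 2633 and 2781 in IgG libraries. The level was 1336 ± 96 CPM of listed genes with the agonist and 901 ± 36 with IgG, a log2 fold change of 0.57 ± 0.06.

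FOLR2, the folate receptor of tissue macrophages (chromosome 11, 72216601 to 72221950, plus strand), was the lowest listed member and among the most changed. It had 34, 42 and 35 counts in agonist libraries, against 6, 12 and 23 in IgG libraries. Levels were 11.2 ± 1.8 CPM of listed genes with the agonist and 4.45 ± 2.71 with IgG, a log2 fold change of 1.33 ± 0.41. The IgG libraries differed among themselves by more than those of most members, and the fold change was 0.93 without IgG library 1 and 1.90 without IgG library 3. In set 1, FOLR2 had 2, 2 and 5 counts in antagonist libraries, against 2, 7 and 3 in IgG libraries, a ratio per total of 0.763 with a counting interval of 0.284 to 1.97.

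CD52, the GPI-anchored glycoprotein of lymphocytes and monocytes (chromosome 1, 26317957 to 26320523, plus strand), had the largest fold change of the members and ranked 10 of 904. Agonist libraries had 135, 94 and 117 counts, against 23, 9 and 57 in IgG libraries. Means were 34.6 ± 4.8 CPM of listed genes with the agonist and 9.36 ± 7.64 with IgG, a log2 fold change of 1.86 ± 0.38. The size depended on IgG library 3, which held 57 counts: without it the log2 fold change was 2.72, and without IgG library 2 it was 1.48. In set 1, CD52 had 2, 1 and 7 counts in antagonist libraries, against 2, 1 and 1 in IgG libraries. Most of the antagonist counts came from library 3, and the ratio of 2.54 had a counting interval of 0.734 to 11.1. CD52 shares 25 exonic bases with UBXN11 on the opposite strand, and the use of strand in counting is not given in the sources used here.

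CD68, the lysosomal glycoprotein used as a general macrophage marker (chromosome 17, 7579467 to 7582113, plus strand), was the most abundant member in every group. It had 7835, 6860 and 6946 counts in agonist libraries, against 5872, 4550 and 5608 in IgG libraries, or 2171 ± 119 CPM of listed genes with the agonist and 1722 ± 81 with IgG. The log2 fold change was 0.33 ± 0.06. In set 1 it had 2470, 2619 and 2656 counts in antagonist libraries, against 2841, 2625 and 2828 in IgG libraries. After scaling, all antagonist libraries lay below all IgG libraries, at 144 ± 2.6 CPM with the antagonist and 160 ± 11 CPM with IgG. Groups did not overlap for 49.0% of tested genes, 21.9% higher and 27.1% lower. The log2 fold change of -0.16 ± 0.06 did not pass the test, although it did without IgG library 1, at an equal -0.16, and with length and GC trends removed, at -0.14. Of the 50-base windows of CD68 transcripts, 78.2% also occur in other annotated genes, mostly in a processed transcript that overlaps it on the same strand, so its counts are uncertain to the extent that the counting split such reads.

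VSIR (chromosome 10, 71747559 to 71773498, minus strand) lies within the gene CDH23 on the other strand, with no exonic overlap. It had 4890, 3951 and 4368 counts in agonist libraries, against 3436, 3154 and 3266 in IgG libraries. The agonist group was higher, at 1323 ± 94 CPM of listed genes against 1064 ± 56 with IgG, with a log2 fold change of 0.31 ± 0.07. Antagonist libraries held 1305, 1258 and 1294 counts, against 1361, 1398 and 1298 in IgG libraries. Scaled levels of 71.7 ± 2.6 CPM with the antagonist and 78.5 ± 4.9 CPM with IgG overlapped, and the log2 fold change of -0.13 ± 0.07 did not pass the test. It passed, at -0.33 ± 0.05, once trends on length and GC content were removed.

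**Figure D2:**
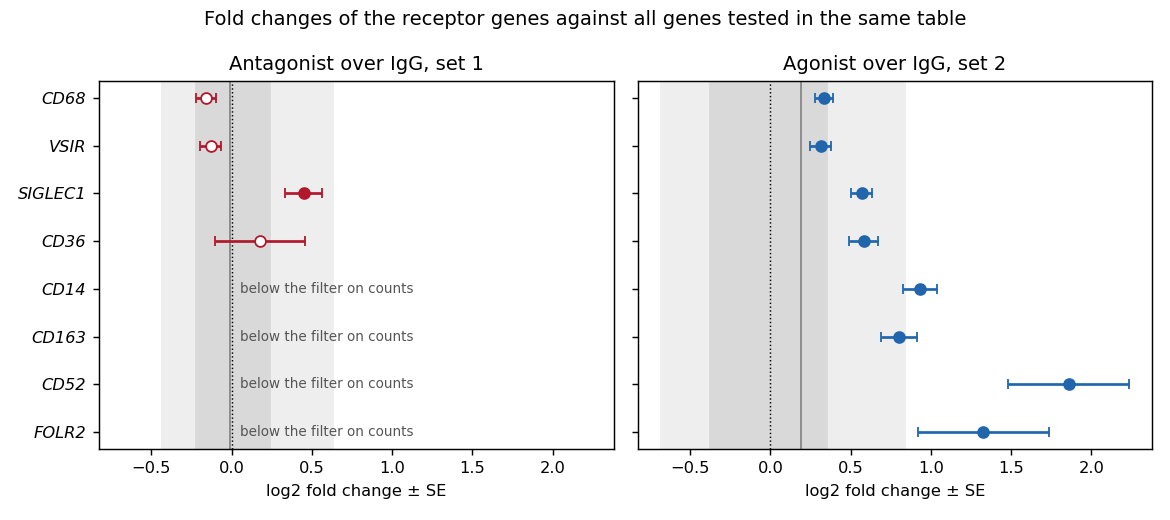
Log2 fold changes (points, bars ± SE) of antagonist over IgG in set 1 and agonist over IgG in set 2, with filled points for genes called at an adjusted p of 0.05 and open points for the rest. Grey bands span the 5th to 95th and the 25th to 75th percentiles of all tested genes of the same table, with a line at their median, and CD52, FOLR2 and CD14 lie beyond the outer band of set 2.

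The difference between the antibodies was taken as the agonist effect minus the antagonist effect. It was fitted over 900 of the 902 genes that both tables hold, and is given for the 4 members tested in both sets. CD14, CD163, CD52 and FOLR2 are in both tables but had too few counts in set 1 to be tested there. The 900 genes therefore include some that were not tested in set 1. CD68 and VSIR differed, by 0.49 ± 0.08 and 0.44 ± 0.09 on the log2 scale, and both were called (edgeR interaction of set and treatment), where 56.7% of the 900 genes were called, 29.7% in that direction and 27.0% in the other. For both genes, the agonist libraries were above their IgG libraries while the antagonist means were below theirs. The difference for CD36 was 0.41 ± 0.26 and that for SIGLEC1 was 0.12 ± 0.12, and neither was called. SIGLEC1 was called, at 0.40, with length and GC trends removed, and CD36, at 0.68, without antagonist library 3. All these differences share the uncertain zero point of set 2.

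Each of the 8 genes in both tables took a larger share of the shared-gene counts in the IgG libraries of set 2 than in those of set 1, although both groups carry the same label for pretreatment. In CPM of the 902 shared genes, CD163 stood at 148 in IgG of set 2 and at 0 in IgG of set 1. The IgG libraries of set 2 had 96.7 for CD14, 189 for CD36 and 907 for SIGLEC1, where those of set 1 had 2.80 for CD14, 11.0 for CD36 and 72.7 for SIGLEC1. The mean of IgG in set 2 was 9.42 for CD52, 4.48 for FOLR2, 1071 for VSIR and 1731 for CD68, and in set 1 it was 0.501 for CD52, 1.54 for FOLR2, 515 for VSIR and 1052 for CD68. The tables were made and scaled separately and the shared genes were selected in set 2, so these levels were not tested against each other. The same 2 groups also differed in CXCL10, with 0 counts in IgG of set 1 and at least 620 counts a library in IgG of set 2, and the part of interferon exposure in the levels was not tested.

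Per kilobase of exonic length, CD68 was the most abundant in both IgG groups, followed by VSIR and SIGLEC1. In IgG of set 1 the levels were 73.3 ± 5.0, 15.3 ± 0.96 and 1.41 ± 0.17 CPM per kb, each apart from the next by more than their spread. CD14 (0.227 ± 0.057), FOLR2 (0.166 ± 0.113), CD36 (0.153 ± 0.032) and CD52 (0.0812 ± 0.029) followed, and among these the SDs of neighbours overlap except between CD36 and CD52. In IgG of set 2 the order was CD68 (786 ± 37 CPM of listed genes per kb), VSIR (208 ± 11), SIGLEC1 (114 ± 4.6), CD14 (51 ± 6.2), CD163 (25.3 ± 4.0), CD36 (17.3 ± 1.4), CD52 (10.01 ± 8.17) and FOLR2 (3.14 ± 1.92). From CD36 downwards neighbours did not differ beyond their spread, and CD163 and CD36 changed places when the longest transcript set the length. In agonist libraries CD52, at 37.0 ± 5.2 CPM of listed genes per kb, stood above CD36, at 25.9 ± 1.4, and the rest of the order was that of the IgG libraries.

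**Figure D3:**
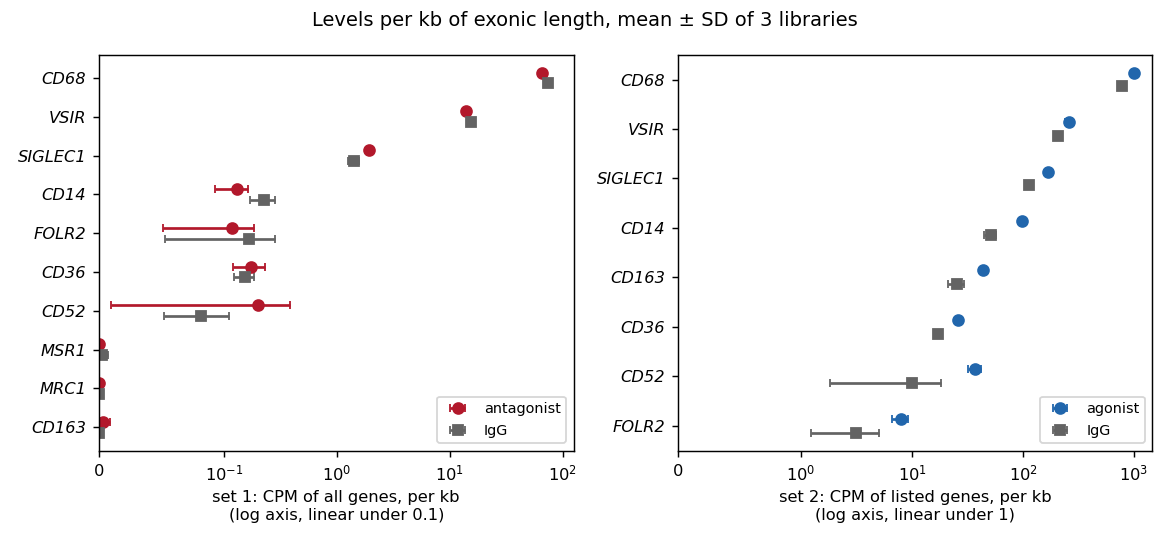
Levels per kb of exonic length (TMM-scaled CPM over the union of exons, mean ± SD of 3 libraries; log axes, linear near 0) of all genes in set 1 and of listed genes in set 2. CD68, VSIR and SIGLEC1 lead in both sets, and the 2 panels have different denominators and cannot be compared in height.

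Relatives of the 10 genes were counted from textbook lists with the members left out, beside a median log2 fold change of -0.01 over all tested genes of set 1 and 0.19 over the listed genes of set 2. Of all tested genes of set 1, 15.6% were called higher and 20.5% lower, and of the listed genes of set 2, 55.6% and 44.2%. Of 12 tested scavenger receptors, 2 rose with the antagonist, 2 fell, and the median was 0.22. The counts were 3 higher and 1 lower with library totals, with DESeq2 and without IgG library 1, 1 higher and 3 lower with length and GC trends removed, 0 higher and 1 lower without IgG library 2, and 0 higher and 2 lower without antagonist library 3. STAB2, which clears hyaluronan and apoptotic cells, rose by 0.58 ± 0.19 on the log2 scale. CD163L1 and the bacteria-binding receptor MARCO fell, with log2 fold changes of -0.53 ± 0.12 and -0.28 ± 0.09. Set 2 listed 1 gene of this list besides the members, the fungal glucan receptor CLEC7A, which was higher with the agonist by 1.16 ± 0.27.

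Lectins and partners of CD14 were counted with the antagonist beside 15.6% of all tested genes called higher and 20.5% called lower. Of 13 myeloid C-type lectins, CLEC12B rose (0.38 ± 0.10) and CLEC2B (-0.43 ± 0.09) and CLEC5A (-0.21 ± 0.07) fell. Of 10 siglecs other than SIGLEC1, SIGLEC6 rose by 0.28 ± 0.07 and SIGLEC12 changed by -0.25 ± 0.07. Of 16 tested genes of lipopolysaccharide sensing and toll-like receptor signalling, only TLR4 itself passed, with -0.25 ± 0.09. That call ended with DESeq2, with DESeq2 size factors (1 gene higher, 0 lower), with library totals or no filter (2 higher, 0 lower each), and without any 1 of the libraries other than IgG library 1; without IgG library 3, 2 were higher and 0 lower. Of 3 lysosomal membrane relatives of CD68, LAMP2 fell (-0.29 ± 0.07). Set 2 listed none of the siglecs, toll-like receptor partners or lysosomal relatives, while CLEC5A (0.29 ± 0.08) and CD93 (0.16 ± 0.06) were higher there.

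Checkpoint relatives of VSIR moved both ways with the antagonist: of 11 tested, 4 rose and 2 fell, with a median of 0.03, and with length and GC trends removed 4 rose and 4 fell. The costimulatory ligand ICOSLG rose by 0.63 ± 0.16, TNFRSF14 (HVEM) by 0.46 ± 0.09 and NCR3LG1, a ligand of an NK cell receptor, by 0.37 ± 0.06. SELPLG, which binds VISTA at acidic pH, and LGALS9 were the 2 that fell, with -0.22 ± 0.06 and -0.25 ± 0.06. In set 2, all 4 listed checkpoint genes were higher with the agonist, among them SELPLG (0.44 ± 0.09), the costimulatory ligand CD86 (0.38 ± 0.12) and LGALS9 (0.28 ± 0.08). These genes passed the same selection as the rest of set 2, where 55.6% of the 904 listed genes were called higher and 44.2% lower.

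Receptors for antibody and complement were higher with the agonist in all 8 listed cases, with a median of 0.30, led by the integrin chain ITGAX (0.54 ± 0.06), the inhibitory Fc receptor FCGR2B (0.40 ± 0.08) and the neonatal Fc receptor FCGRT (0.34 ± 0.07). These genes share the selection that all genes of set 2 went through, where 55.6% of listed genes were called higher and 44.2% lower. With DESeq2 size factors 5 of the 8 were called and with DESeq2 4. With the antagonist, 1 of 14 rose and 2 fell, with a median of 0.00; with library totals 1 was higher and 0 lower, and without antagonist library 3 1 was higher and 1 lower. ITGAX was the one that rose (0.42 ± 0.08), and the signalling chain FCER1G (-0.28 ± 0.07) and FCGR2A (-0.25 ± 0.06) fell. For the uptake of dying cells, 5 of 15 tested genes rose with the antagonist and 2 fell, with GAS6, the bridging ligand of MERTK, at 0.93 ± 0.13 and the annexin ANXA1 at -0.55 ± 0.12. That balance was lost without IgG library 2 and without antagonist library 3, with 2 higher and 2 lower each, and turned with length and GC trends removed, with 3 higher and 5 lower. ITGB5, a chain of an integrin that binds dying cells, was the 1 such gene listed in set 2, at 0.69 ± 0.12.

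Genes of haem clearance, lipid uptake, GPI anchor synthesis and folate use were called lower more often than higher with the antagonist, where 20.5% of all tested genes were called lower and 15.6% higher, except that scaling by library totals gave 5 higher and 2 lower for lipid genes, 3 and 3 for GPI genes and 1 and 1 for folate genes. Of 11 genes that clear haem and store its iron, 8 fell and none rose, with a median of -0.28. They included the biliverdin reductase BLVRA (-0.49 ± 0.07), the iron exporter SLC40A1 (-0.46 ± 0.12) and the ferritin light chain FTL (-0.43 ± 0.06), whose near copies elsewhere in the genome can share reads. The number lower was 5 without antagonist library 1, without antagonist library 3 and with library totals. Of 18 genes of lipid uptake and storage, 7 fell and 1 rose, with the cholesterol ester hydrolases NCEH1 (-0.41 ± 0.11) and LIPA (-0.30 ± 0.08) and the fatty acid ligase ACSL3 (-0.33 ± 0.08) among the lower ones. The number lower was 2 without antagonist library 1, 2 without antagonist library 3 and 4 without IgG library 2. Of 26 genes that build the GPI anchor used by CD14, FOLR2 and CD52, 10 fell and 2 rose, with PIGK (-0.47 ± 0.08) and PIGP (-0.37 ± 0.13) lower and PIGG (0.49 ± 0.06) higher. The number lower was 3 without antagonist library 1, 4 without antagonist library 3 and 4 without IgG library 2. Of 8 genes of folate uptake and use, 4 fell and 1 rose, with SHMT2 (-0.27 ± 0.06) and SHMT1 (-0.26 ± 0.07) among the lower ones, and the number lower was 1 without antagonist library 1, 2 without antagonist library 3 and 2 without IgG library 2. In the same antagonist libraries, ribosomal protein genes held 5.29 to 5.55% of counts, against 6.46 to 7.63% in IgG libraries, and the part of this shift and of the mitochondrial one in the list counts was not tested. In set 2, FTH1 (0.37 ± 0.05) and FTL (0.21 ± 0.06) were higher with the agonist, CPT1A (-0.31 ± 0.06), PIGK (-0.38 ± 0.08) and SHMT2 (-0.34 ± 0.05) were lower, and NR1H2 (0.30 ± 0.09) was higher.

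**Figure D4:**
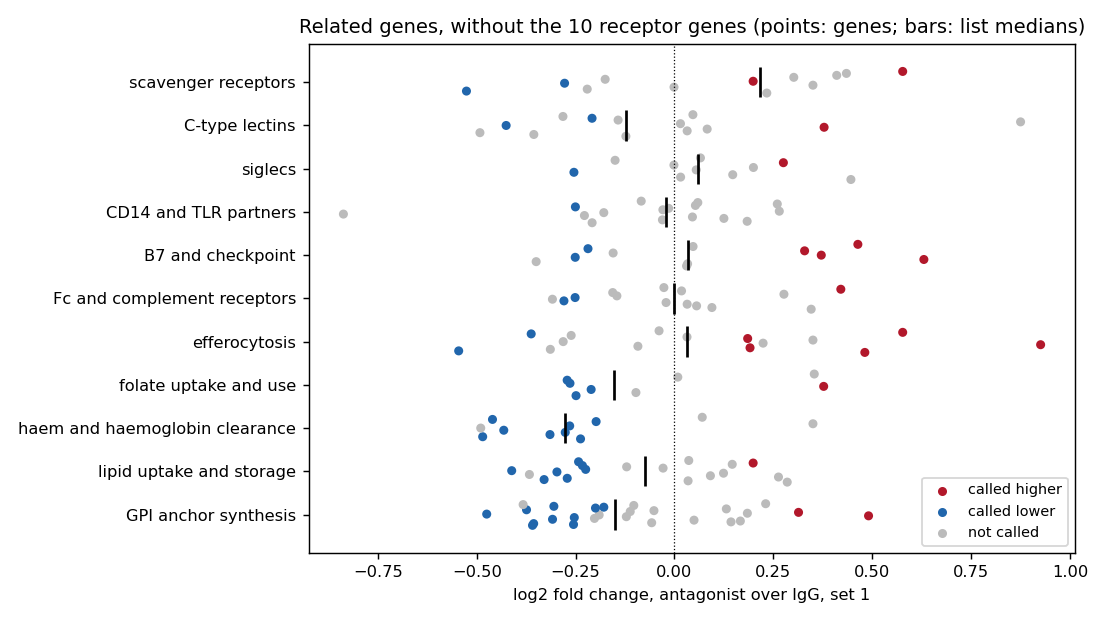
Log2 fold changes of antagonist over IgG for the tested genes of 11 related lists (points, coloured by call; black bars are list medians), with the 10 receptor genes left out. The haem list lies furthest below 0, with a median of -0.28, and the scavenger receptor list has the highest median, 0.22.

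Regulators and markers of the monocyte to macrophage step were mixed. Of 23 tested regulators, 4 rose and 4 fell with the antagonist, among them NR4A1 (0.35 ± 0.12), TFE3 (0.25 ± 0.07) and RUNX1 (0.25 ± 0.07). That balance turned to 6 higher and 0 lower with library totals and to 0 higher and 6 lower with length and GC trends removed, and was 1 higher and 0 lower without antagonist library 1, 0 higher and 1 lower without antagonist library 3, 3 higher and 0 lower without IgG library 2 and 6 higher and 2 lower without IgG library 3. RUNX1 was lower with the agonist (-0.47 ± 0.08), whereas STAT6 (0.34 ± 0.08) and NR4A1 (0.32 ± 0.09) were higher. Of the 22 monocyte markers, CSF3R rose (0.22 ± 0.08) and MNDA, PTPRC, LYZ, CTSG, FCN1 and TYROBP fell with the antagonist, from -0.23 for PTPRC to -0.46 for LYZ. The monocyte markers listed in set 2 were CSF1R (0.67 ± 0.22) and TYROBP (0.54 ± 0.09), both higher with the agonist. SPI1, which encodes PU.1, had 269 ± 11.6 CPM in antagonist libraries and 255 ± 39.8 CPM in IgG libraries, and did not pass the test. The summed T and NK cell markers were at 296 to 298 CPM in antagonist libraries, against 340 to 361 CPM in IgG libraries, nearly all of it NKG7. The summed red cell and megakaryocyte markers were at 18.6 to 19.7 CPM with the antagonist and 20.6 to 22.3 CPM with IgG, those of epithelium and fibroblasts, mostly VIM, at 189 to 196 CPM with the antagonist and 214 to 231 CPM with IgG, and those of B cells at 35.8 to 39.7 CPM with the antagonist and 31.9 to 33.9 CPM with IgG. Of these markers NKG7, EPOR and VIM fell and CD5 and PAX5 rose with the antagonist. CD5 rose by 1.73 ± 0.28 on the log2 scale, at 3.15 CPM with the antagonist and 0.96 CPM with IgG. The call of EPOR ended with library totals and that of PAX5 with DESeq2. Set 2 listed 2 of the T and NK cell markers, with CD247 lower (-1.10 ± 0.17) and NKG7 higher (0.22 ± 0.07) with the agonist. The part of all these markers in the results on the receptors was not tested.

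Likeness of pattern was measured as the root mean square distance of log2 CPM, less the mean of the own IgG group, over the 12 libraries and 901 other shared genes. For CD52, the member with the largest agonist fold change, the nearest were ACP5 (0.53), LOC101927069 (0.57), VAC14-AS1 (0.58), DQX1 (0.66) and YPEL4 (0.67), and for CD52 the set 1 side of this pattern rests on 10 counts over the antagonist and 4 over the IgG libraries. Chosen after the values were seen, ITGAX lay close to SIGLEC1 at 0.056, the lysosomal protease CTSB close to CD68 at 0.043 and FCGRT close to VSIR at 0.049.

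**Figure D5:**
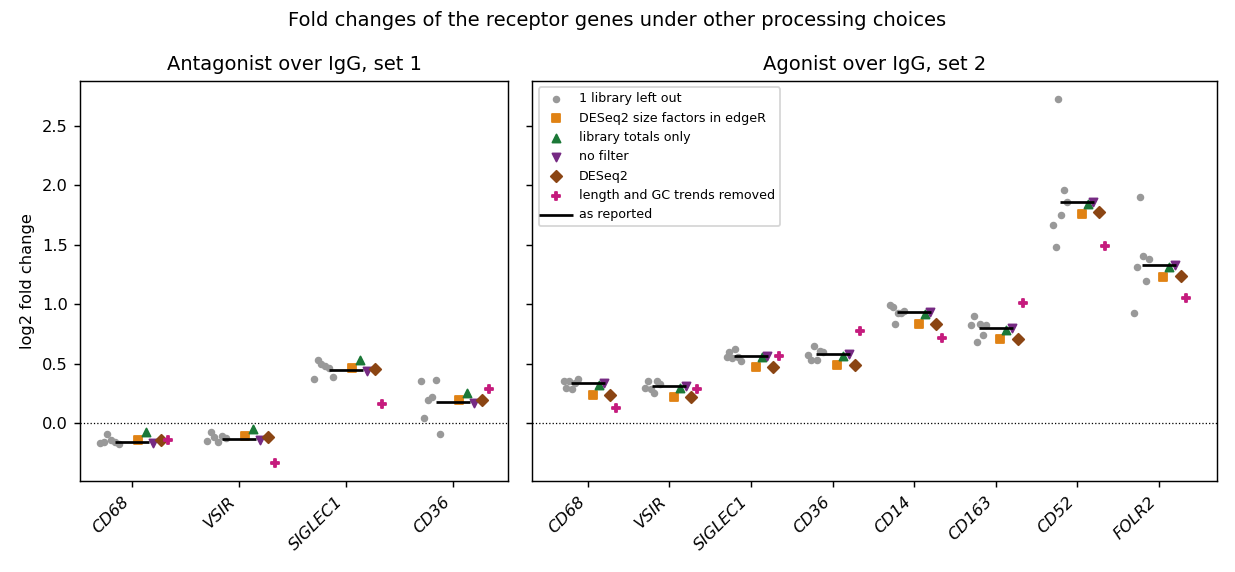
Log2 fold changes of the receptor genes as reported (black lines) and under other processing choices (symbols) or with 1 library left out (grey points), for antagonist over IgG and agonist over IgG. All agonist values stay above 0, from 0.13 for CD68 to 2.72 for CD52, whereas CD36 crosses 0 in set 1.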

How the data were processed

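RNA-seq read counts per gene were analysed for 12 libraries of U937 cells, 3 in each of 4 groups. The authors deposited a table of raw whole-number counts for each set. HISAT2, Cufflinks and hg38 are named, per the submitters' processing notes; for versions, the counting program, the annotation and strand use the sources used here give nothing. Column names carry a group but no replicate number, so library numbers are column positions and pair nothing. In set 1, 570 rows without a symbol, holding 0.0678 to 0.105% of counts, stayed out.

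Within each set, edgeR 4.0.16 (R 4.3.3) tested the counts (filterByExpr with a minimum count of 10, TMM scaling, robust quasi-likelihood fit, Benjamini-Hochberg adjustment at 0.05 over all tested genes). The antibodies were compared by the interaction of set and treatment. The procedure was checked on simulated counts. CPM of tested genes are TMM-scaled; genes below the filter are given as counts with exact 95% intervals, and a count of 0 as the limit of 3 counts. Total counts of 17035334 to 18820312 per library in set 1 set the precision. Gene positions and lengths are from GENCODE v29 (GRCh38), upstream sequences from RefSeq (GRCh38.p14). Alternatives were DESeq2 1.42.0, its size factors, library totals, no filter, removal of length and GC trends (available for 13119 of 13778 genes in set 1 and 874 of 904 in set 2) and each library left out.

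The receptor genes, the related lists and the tests were chosen with earlier results of these data known. Besides all members, up to 3 called genes per list and set with the largest fold changes and at least 5 CPM were named, and the 5 genes nearest in pattern to the member with the largest agonist fold change.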

Additional observations from a re-analysis of the deposited data

Results flagged for a closer look

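The effects of the antibodies, each against its own IgG libraries, differed for CD68 and for VSIR. The agonist effect minus the antagonist effect was 0.491 on the log2 scale for CD68, with 0.33 for the agonist and -0.16 for the antagonist. It was 0.444 for VSIR, with 0.31 for the agonist and -0.13 for the antagonist. Both differences were called over 900 genes (edgeR interaction, Benjamini-Hochberg adjustment), in which 56.7% of genes were called in either direction. Across 17 alternatives CD68 ranged from 0.27 to 0.53 and VSIR from 0.33 to 0.62, and both were called in each. The antibodies were used on separate sets of libraries whose tables were made separately, so the antibody and the set cannot be told apart.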

How the results depend on the processing

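With the agonist, all 8 listed receptors were called higher under each of 11 alternatives, with log2 fold changes of 0.72 to 0.99 for CD14, 0.68 to 1.01 for CD163, 0.49 to 0.77 for CD36, 0.93 to 1.90 for FOLR2, 0.47 to 0.62 for SIGLEC1, 1.48 to 2.72 for CD52, 0.13 to 0.37 for CD68 and 0.22 to 0.36 for VSIR. Fitting without the filter could change nothing in set 2, since all 904 listed genes passed it. The members were selected on this comparison, so these calls are a description and support nothing by themselves. Over all listed genes, 503 were called higher and 400 lower; the number higher was 317 with DESeq2 size factors and 308 with DESeq2, both with 400 lower, and 334 with length and GC trends removed, with 363 lower. Leaving out 1 library gave 446 to 485 higher and 399 to 400 lower. In set 1, 2147 genes were called higher and 2831 lower, against 3021 and 1597 with library totals, a scaling that moved the median fold change to 0.07. Leaving out 1 library gave 1374 to 2474 higher and 1769 to 2601 lower. Of the receptors tested there, 1 was called higher and 0 lower. With length and GC trends removed, 0 were called higher and 2 lower, and leaving out 1 library gave 0 to 1 in either direction. CD36 turned to -0.092 without antagonist library 3 and reached 0.36 without antagonist library 2. The causes of these changes were not tested. With the longest transcript as length, CD14, CD36 and FOLR2 ranked 5, 4 and 6 in IgG of set 1 in place of 4, 6 and 5, and CD163 and CD36 ranked 6 and 5 in IgG of set 2 in place of 5 and 6. Of the counts over related lists in set 1, 318 were within 1.5 times of those reported and 122 were not. No paired analysis was possible because the columns carry no replicate number. The antagonist comparison is limited, since 6 of the 10 receptors had too few counts in set 1 to be tested.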
